A study of Caenorhabditis elegans with 9 samples.

Results

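The actin genes act-1, act-2, act-3 and act-4, the tropomyosin gene lev-11, the genes of the giant sarcomere proteins unc-22, unc-89, ttn-1 and ketn-1, and dim-1 were followed in RNA sequencing of whole *C. elegans* larvae. These 10 genes, of 46699 in the deposited gene table, were taken by name. The giants of the set are the products of unc-22, unc-89, ttn-1 and ketn-1, with coding lengths of 15171 to 55975 bases. dim-1, with 1923 bases, encodes a smaller protein built of immunoglobulin domains. The larvae came from populations synchronised by bleaching and fed *E. coli* OP50 at 20 °C. They were picked by hand while asleep in L4 lethargus, the period of inactivity that precedes the final molt. The groups were nas-38(ok3407) in strain HBR1010, nas-38(tm2655) in strain HBR1114 and the wild type strain N2, with 3 libraries each. nas-38 encodes a secreted astacin metalloprotease. The deposited tables call ok3407 a gain of function and tm2655 a loss of function, and the series title writes the first allele as ok4307. Each allele was sampled in 1 strain, and no tissue was separated.

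Striated muscle contracts in sarcomeres, where thin filaments of actin slide past thick filaments of myosin. Tropomyosin lies along the actin filament and, with the troponins, sets when myosin may bind. Very long proteins made of repeated immunoglobulin and fibronectin domains run along the filaments or tie them to their anchors, and in the nematode body wall these anchors are the dense bodies for thin filaments and the M-line for thick filaments. Mutations in several of these nematode genes affect movement, and the unc in the names unc-22 and unc-89 stands for uncoordinated.

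Gene reads numbered 13.8 M to 40.5 M per library (M, megareads), of which 93.71% to 96.04% were uniquely mapped. The transcript of nas-38 stood at 227, 375 and 337 CPM in ok3407, 10, 14.4 and 7.56 CPM in tm2655 and 134, 57.9 and 65.1 CPM in wild type. CPM are the counts of a gene per megaread, scaled to library size with TMM factors. tm2655 replicate 1 stood apart on the third principal component of all genes, at 69.5 beside -20.7 to 6.7 for the other libraries. Wild type replicate 1, which had the fewest reads (13.8 M), stood apart on the second component, at -62.8 beside -28.9 to 37.5. Test results are log2 fold changes from 1 edgeR quasi-likelihood fit of the 9 libraries, with an approximate standard error after ± and a Benjamini-Hochberg p adjusted over the 16055 genes tested. A gene was called where this adjusted p was under 0.05, and all 10 genes of the set were tested. The replicates are biological per the labels, and p-values measure the spread between these libraries.

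The thin filament genes gave far more transcript per base of coding sequence than the giants. On the RPKM scale, which divides exon reads by coding length and library size, act-3 averaged 1914 ± 252 in ok3407, 2214 ± 187 in tm2655 and 2527 ± 153 in wild type (SD, n = 3 libraries each, as for every ± level). In wild type the order went on with act-1 at 2047 ± 143 RPKM, act-4 at 1992 ± 214, act-2 at 1352 ± 118 and lev-11 at 1047 ± 118. act-1 and act-4 were neighbours whose levels did not differ beyond their spread. The same held for act-3 and act-1 in ok3407, where act-1 had 1696 ± 106 RPKM, and in tm2655, where it had 2059 ± 139 RPKM. dim-1 followed at 410 ± 45.3 RPKM in wild type. The giants ended the order at 32.1 ± 2.45 RPKM for ketn-1, 24.6 ± 0.456 for unc-22, 19.3 ± 0.814 for unc-89 and 3.01 ± 0.195 for ttn-1. The same order of means held in ok3407 and in tm2655, although there ketn-1 and unc-22 lay within their spread of each other: ketn-1 had 21.8 ± 4.61 RPKM and unc-22 19.3 ± 1.90 in ok3407, and 28.6 ± 5.08 and 23.8 ± 1.48 in tm2655. The coding length counts the exons of all isoforms together, so a gene with many alternative exons has a low RPKM for its size. ttn-1, with 55975 bases, is the longest of the set.

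The first comparison set the gain of function allele against wild type. All 10 genes stood lower in ok3407 than in wild type, with every ok3407 library below every wild type library for each gene. Among all genes tested, 14.5% were separated in that direction and 14.4% in the other. 4 of the 10 were called lower, act-2, unc-22, unc-89 and dim-1, beside 2.91% of all genes called lower, 3.33% called higher and 6.23% called in either direction. The median change of the 10 was -0.57, beside 0.03 for all genes tested, and the values ran from -0.79 for dim-1 to -0.43 for ttn-1. All 10 had an unadjusted p under 0.05, as did 23.6% of all genes, and the 6 that were not called had an adjusted p between 0.0554 for ketn-1 and 0.0998 for act-1. In whole animals, fewer cells and less of these transcripts per cell cannot be told apart. Nor can a change in muscle be told from a change in any other tissue that expresses these genes.

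**Figure D1:**
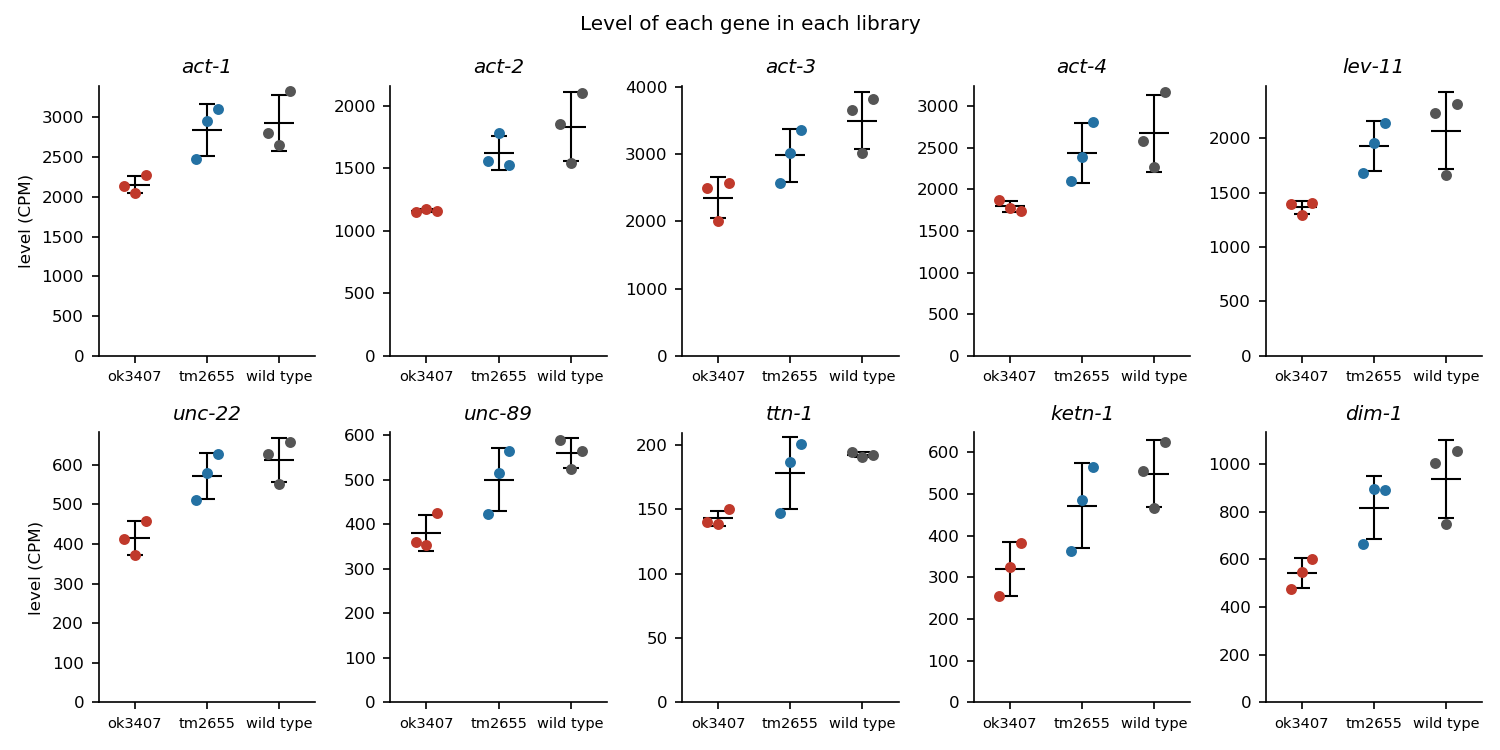
Level of the 10 genes in CPM (vertical axes start at 0) in each library of ok3407, tm2655 and wild type. Points are libraries, and bars give the mean and SD of 3. For each gene the 3 ok3407 points lie below the 3 wild type points, and the tm2655 points overlap those of wild type.

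The actins form the backbone of the thin filament. act-1, act-2 and act-3 are neighbours on chromosome V (act-1 at 11081073 to 11082303 on the plus strand, act-2 at 11076900 to 11078127 and act-3 at 11072012 to 11073243 on the minus strand), and act-4 lies on the X chromosome at 4960662 to 4963984 on the plus strand. These are the coordinates of the deposited tables, which cover the coding part of each gene. act-1, act-2 and act-3 each have 1131 coding bases, and act-4 has 1146.

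act-1 had 2135, 2051 and 2271 CPM in ok3407, 2475, 2949 and 3101 CPM in tm2655 and 2807, 2651 and 3328 CPM in wild type. act-2 had 1150, 1172 and 1161 CPM in ok3407, 1559, 1782 and 1527 CPM in tm2655 and 1856, 1547 and 2100 CPM in wild type. The ok3407 libraries of act-2 lay closely together, with a coefficient of variation of 0.966%, beside 8.58% in tm2655 and 15.1% in wild type. act-3 had 2492, 2001 and 2564 CPM in ok3407, 2573, 3015 and 3357 CPM in tm2655 and 3654, 3015 and 3810 CPM in wild type. act-4 had 1875, 1776 and 1744 CPM in ok3407, 2107, 2389 and 2816 CPM in tm2655 and 2580, 2269 and 3171 CPM in wild type. For all 4 actins the ok3407 libraries were the lowest 3 of the 9, and those of tm2655 and wild type overlapped.

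Only act-2 was called among these 4 actins. It fell in ok3407, to 1161 ± 11.2 CPM against 1835 ± 277 CPM in wild type (-0.66 ± 0.14, adjusted p = 0.0285), which is 0.633 times the wild type level. The values of the others were -0.44 ± 0.14 for act-1 (adjusted p = 0.0998), -0.57 ± 0.16 for act-3 (adjusted p = 0.0715) and -0.57 ± 0.16 for act-4 (adjusted p = 0.0706). With the reads of the 4 genes summed and fitted as 1 feature, actin stood at 7650, 7000 and 7740 CPM in ok3407, 8713, 10137 and 10801 CPM in tm2655 and 10897, 9482 and 12411 CPM in wild type. The summed change was -0.55 ± 0.15 and did not pass (adjusted p = 0.0636). It passed with the DESeq2 Wald test (-0.57, adjusted p = 0.00827), with limma on log2(RPKM + 1) (-0.37, adjusted p = 0.0463) and in edgeR without wild type replicate 2 (-0.65, adjusted p = 0.0354).

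The reads of act-1 and act-3, unlike most of those of act-2 and act-4, were hardly ever assigned to 1 place. The actin sequences themselves were not compared. Uniquely mapped reads made up 7.20% to 8.23% of the act-1 reads in ok3407, 6.09% to 7.15% in tm2655 and 5.88% to 7.06% in wild type. Nearly all of those lay in introns. The uniquely mapped exon reads of act-1 numbered 33, 39 and 63 in ok3407, 39, 55 and 58 in tm2655 and 19, 49 and 42 in wild type. act-3 had 54, 59 and 89 such reads in ok3407, 61, 80 and 84 in tm2655 and 24, 83 and 68 in wild type. So the level printed for act-1 or act-3 rests on how reads shared between the actins were divided. How the authors' counting divided them is not given in the sources used here.

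act-2 and act-4 could be read from their own reads. The unique share of act-2 was 67.3% to 74.5% in ok3407, 63.8% to 65.2% in tm2655 and 58.6% to 66.0% in wild type, and that of act-4 was 98.4% to 99.3% in ok3407, 97.1% to 98.7% in tm2655 and 97.4% to 97.7% in wild type. With uniquely mapped reads alone, act-2 stood at 879 ± 48.2 CPM in ok3407 and 1198 ± 147 CPM in wild type (-0.45 ± 0.13), and its call was lost (adjusted p = 0.0775). With uniquely mapped exon reads alone it was also lost (-0.46 ± 0.13, adjusted p = 0.0689). act-4, the actin with nearly all reads unique, had -0.56 ± 0.16 from unique reads (adjusted p = 0.074), close to its -0.57 from all reads. act-1 had -0.17 ± 0.15 from unique reads (adjusted p = 0.535) and act-3 -0.30 ± 0.16 (adjusted p = 0.293), where the reads counted were mostly intronic. From the few unique exon reads act-1 had -0.37 ± 0.30 (adjusted p = 0.492) and act-3 -0.40 ± 0.28 (adjusted p = 0.417). The fit on unique exon reads was added after the data were seen.

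**Figure D2:**
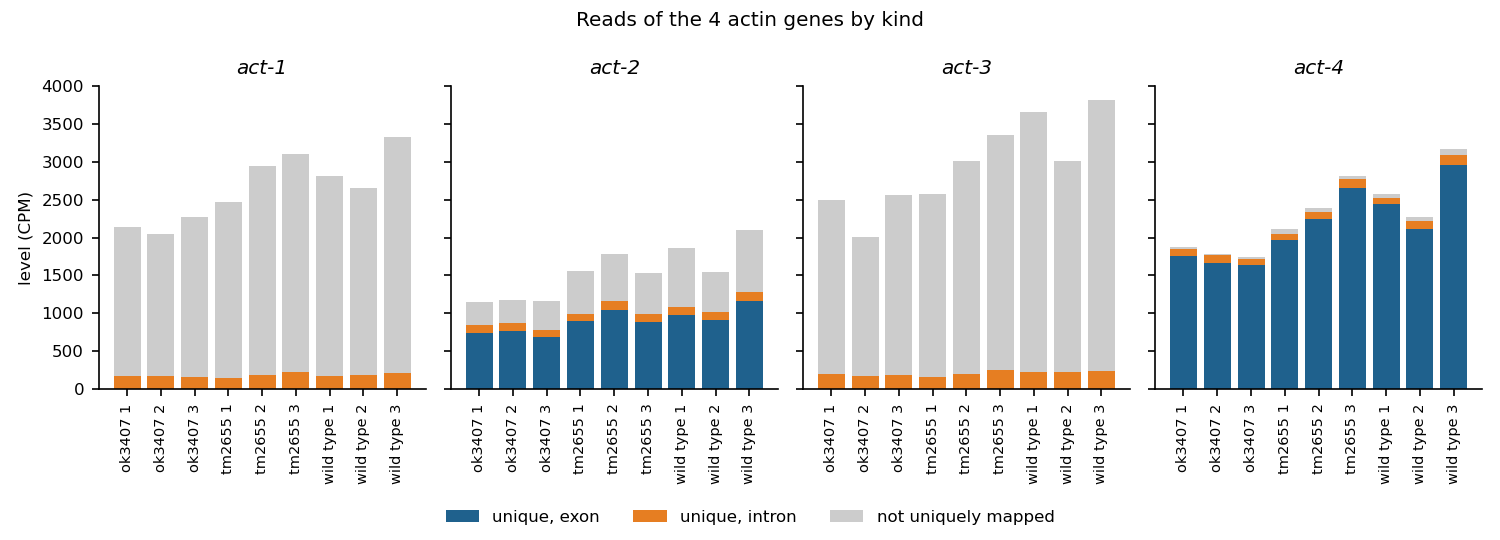
Reads of act-1, act-2, act-3 and act-4 in each library, in CPM, split into uniquely mapped exon reads, uniquely mapped intron reads and reads that were not uniquely mapped. The grey part takes nearly all of act-1 and act-3 and hardly any of act-4.

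The 4 actins kept similar shares of the pooled actin reads. act-1 took 27.9%, 29.3% and 29.3% of them in ok3407, 28.4%, 29.1% and 28.7% in tm2655 and 25.8%, 28% and 26.8% in wild type. act-2 took 15%, 16.7% and 15% in ok3407, 17.9%, 17.6% and 14.1% in tm2655 and 17.0%, 16.3% and 16.9% in wild type. No order of the groups held in every library for act-2, while for act-1 the lowest ok3407 share and the highest wild type share were 27.9% and 28%. Together the 4 genes took 0.778% to 0.845% of all gene reads in ok3407, 0.886% to 1.01% in tm2655 and 0.974% to 1.10% in wild type.

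act-5, the actin of intestinal microvilli, lies outside the set and is given for comparison. It stood at 525 ± 52.4 CPM in ok3407, 1453 ± 304 CPM in tm2655 and 1668 ± 555 CPM in wild type. It fell in ok3407 against wild type (-1.67 ± 0.25, adjusted p = 0.00802) and against tm2655 (-1.47 ± 0.24, adjusted p = 0.0121). Whether its change differed from those of act-1, act-2, act-3 and act-4 was not tested.

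Tropomyosin is encoded by lev-11 on chromosome I (14621514 to 14630959, minus strand). lev-11 had 1393, 1298 and 1405 CPM in ok3407, 1683, 1952 and 2141 CPM in tm2655 and 2227, 1660 and 2313 CPM in wild type. Its highest ok3407 library was below its lowest wild type library, at 1660 CPM, and below its lowest tm2655 library. The change against wild type was -0.60 ± 0.16 and did not pass (adjusted p = 0.0564). It passed in the DESeq2 Wald test (-0.61, adjusted p = 0.011), from uniquely mapped exon reads (-0.62 ± 0.16, adjusted p = 0.048) and without wild type replicate 2 (-0.74, adjusted p = 0.0274). Its reads were unique to the precision given. The RPKM ratio of lev-11 to the 4 summed actins was 0.127, 0.132 and 0.127 in ok3407, 0.134, 0.135 and 0.141 in tm2655 and 0.143, 0.123 and 0.131 in wild type. The ratios of both mutants overlapped those of wild type, while every ok3407 ratio was below every tm2655 ratio. These differences were not tested. The gene makes several isoforms from shared and alternative exons, and the counts do not separate them.

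Twitchin, the product of unc-22 (chromosome IV, 11973651 to 12010880, minus strand), is a giant kinase of the thick filament region. unc-22 had 412, 373 and 458 CPM in ok3407, 510, 580 and 626 CPM in tm2655 and 626, 551 and 658 CPM in wild type. It fell in ok3407, to 414 ± 42.6 CPM against 612 ± 55.0 CPM in wild type (-0.56 ± 0.13, adjusted p = 0.0405), or 0.677 times the wild type level. Its reads were unique throughout, and the call held from unique reads (-0.57 ± 0.13, adjusted p = 0.0376).

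The obscurin homologue UNC-89 sits at the M-line, where thick filaments are cross-linked (chromosome I, 4035893 to 4090427, plus strand). unc-89 had 360, 353 and 426 CPM in ok3407, 423, 514 and 564 CPM in tm2655 and 590, 523 and 565 CPM in wild type. It fell in ok3407, to 380 ± 40.4 CPM against 560 ± 33.9 CPM in wild type (-0.56 ± 0.14, adjusted p = 0.047). tm2655 replicate 1, at 423 CPM, was below the highest ok3407 library. clec-89 lies within the gene on the opposite strand and had 241 reads in the 9 libraries together. Whether the counting used strand is not given in the sources used here, so reads of overlapping genes are uncertain.

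ttn-1 (chromosome V, 6121577 to 6202533, minus strand) encodes a titin-like protein. It had the lowest counts of the set, with 140, 139 and 150 CPM in ok3407, 147, 187 and 201 CPM in tm2655 and 195, 191 and 192 CPM in wild type. The wild type libraries lay closely together, and every ok3407 library was lower. The change of -0.43 ± 0.13 was the smallest of the 10 and did not pass (adjusted p = 0.078). It passed with the DESeq2 Wald test (-0.45, adjusted p = 0.0373) and without tm2655 replicate 1 (-0.43, adjusted p = 0.0358). exp-2 lies within the gene on the opposite strand, with 1485 reads in the 9 libraries together.

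Kettin, the product of ketn-1 (chromosome V, 2782578 to 2807860, minus strand), binds actin through its immunoglobulin repeats next to the dense bodies. ketn-1 had 254, 324 and 382 CPM in ok3407, 364, 486 and 565 CPM in tm2655 and 554, 465 and 625 CPM in wild type. It varied most of the 10 genes within ok3407, with a coefficient of variation of 20.1%. The change was -0.78 ± 0.20, with an adjusted p of 0.0554. It passed without a filter on low counts (-0.78, adjusted p = 0.0459), with the replicate block (-0.80, adjusted p = 0.0305), with the DESeq2 Wald test (-0.79, adjusted p = 0.0104) and without tm2655 replicate 1 (-0.78, adjusted p = 0.0389).

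DIM-1 (chromosome X, 8051018 to 8058212, minus strand) is an immunoglobulin protein found around dense bodies and is needed for stable thin filaments. dim-1 had 476, 549 and 601 CPM in ok3407, 665, 897 and 892 CPM in tm2655 and 1007, 751 and 1056 CPM in wild type. It fell in ok3407, to 542 ± 63.2 CPM against 938 ± 164 CPM in wild type (-0.79 ± 0.18, adjusted p = 0.0341), or 0.578 times the wild type level. Its highest ok3407 library, at 601 CPM, was below its lowest library in tm2655, at 665 CPM, and in wild type, at 751 CPM.

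**Figure D3:**
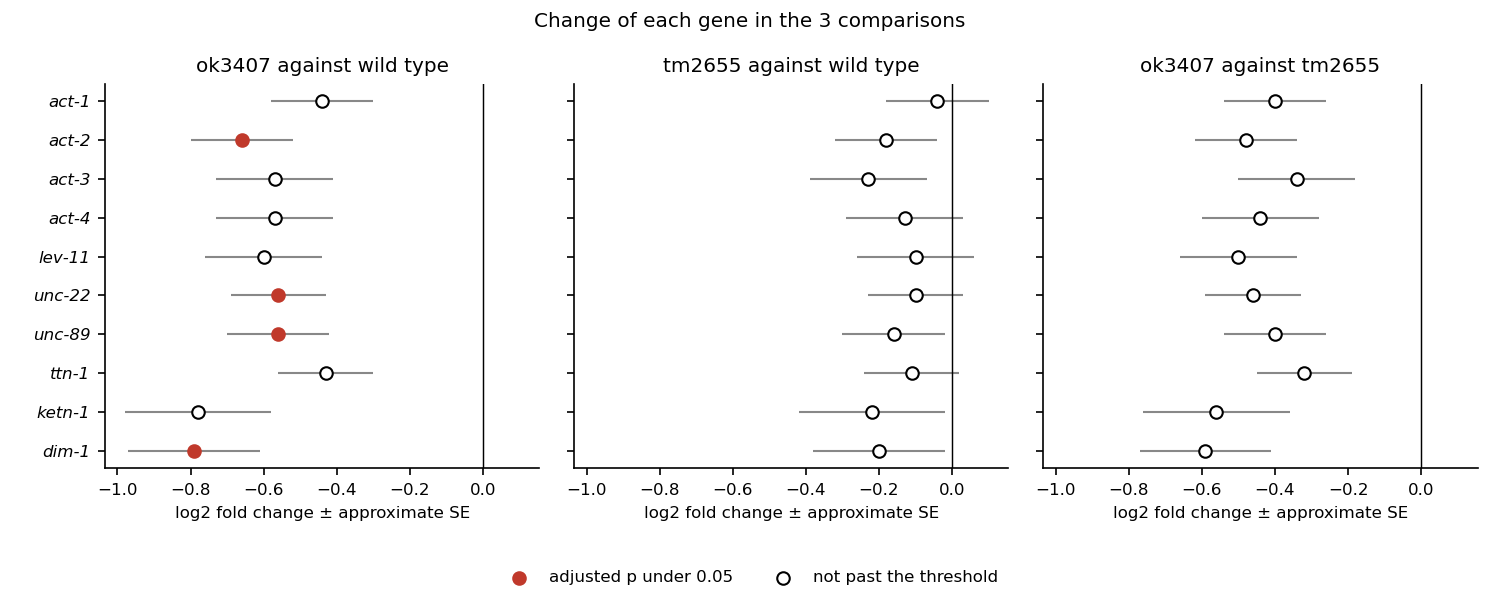
Log2 fold change of each gene with its approximate standard error in the 3 comparisons, from the edgeR fit of the 9 libraries. Filled points passed at an adjusted p under 0.05. All values are negative, and the 4 filled points, act-2, unc-22, unc-89 and dim-1, are in ok3407 against wild type.

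In ok3407 against wild type, calls at this depth of replication depended on single libraries, while directions did not. In the 20 alternatives tried, including the fits without each library in turn, all 10 genes had a negative value in ok3407 against wild type each time. All 4 calls were lost without ok3407 replicate 1 (adjusted p 0.0787 to 0.13) and without ok3407 replicate 2 (adjusted p 0.0871 to 0.137). They were also all lost when wild type replicate 1 (adjusted p 0.0809 to 0.13) or wild type replicate 3 (adjusted p 0.116 to 0.158) was left out. Wild type replicate 1 was the library apart on the second principal component. act-2, unc-22 and unc-89 were lost without ok3407 replicate 3 (0.051 to 0.0646). unc-22 and unc-89 were lost without tm2655 replicate 2 (0.0621 to 0.0701) or tm2655 replicate 3 (0.0567 to 0.0578), and unc-89 without wild type replicate 2 (0.0576). Without that wild type library act-3 (-0.67, adjusted p = 0.0492), act-4 (-0.69, adjusted p = 0.0426) and lev-11 passed. Without tm2655 replicate 1, the library apart on the third component, all 4 were kept and ttn-1 and ketn-1 passed as well. The DESeq2 Wald test called all 10 genes, beside 1972 of 21900 over all genes (984 lower). With limma on log2(RPKM + 1) 1 was called, act-2 (-0.48, adjusted p = 0.035), beside 946 of 14208 (234 lower). The fit of the 6 libraries of ok3407 and wild type alone called 1, dim-1 (-0.79, adjusted p = 0.049), beside 808 of 15630 (317 lower). Scaled by total library size, without TMM factors, the median of all genes moved to 0.24, the median of the 10 genes was -0.35 and 2 were called, act-2 (-0.43, adjusted p = 0.0411) and dim-1 (-0.56, adjusted p = 0.0461). TMM factors were 1.08 to 1.112 in ok3407 and 0.884 to 1.027 in wild type. The authors' deposited table of genes changed in ok3407, which holds genes with a corrected p under 0.05 and more than a 2-fold change, lists 925 genes and 0 of these 10. In it act-5 has a signed fold change of -3.19 with a corrected p of 3.92e-07.

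The second comparison set the loss of function allele against wild type. None of the 10 genes was called in tm2655 (0 by edgeR, 0 at an unadjusted p under 0.05, and 0 by DESeq2 and by limma), beside 0.00623% of all genes called and 2.47% at an unadjusted p under 0.05. All 10 values were slightly negative, from -0.23 ± 0.16 for act-3 to -0.04 ± 0.14 for act-1, with a median of -0.15 beside 0.01 for all genes tested. Without tm2655 replicate 1, apart on the third principal component, the values ran from -0.15 for act-2 to 0.05 for act-1, with a median of -0.05. The median was also -0.23 without tm2655 replicate 3, -0.25 without wild type replicate 2 and -0.09 without wild type replicate 3. The groups overlapped for all 10 genes, while 2.62% of all genes had every tm2655 library below every wild type library and 3.85% had every one above. dim-1, which had the most negative value in ok3407, stood at 818 ± 133 CPM in tm2655 and 938 ± 164 CPM in wild type (-0.20 ± 0.18, adjusted p = 0.998). The sign for act-1 turned positive with total library size, limma on log2(RPKM + 1) and unique reads, up to 0.07 with unique exon reads. It also turned without tm2655 replicate 1 (0.05) or wild type replicate 3 (0.06). Without tm2655 replicate 1 ttn-1 turned too (0.01). act-4 turned without wild type replicate 3 (0.01), and act-3 with unique exon reads (0.01). These values do not show that tm2655 left the genes unchanged. The authors' deposited table for tm2655 lists 7 genes, 0 of them among these 10.

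The third comparison set the alleles against each other. None of the 10 genes was called between ok3407 and tm2655 by edgeR, beside 4.02% of all genes called, 1.69% lower and 2.33% higher in ok3407. At an unadjusted p under 0.05 stood 9 of the 10, and 17.6% of all genes. DESeq2 called 3, act-2, unc-22 and dim-1, beside 1441 over all genes, and limma called 0. All 10 values were negative, from -0.59 ± 0.18 for dim-1 (adjusted p = 0.102) to -0.32 ± 0.13 for ttn-1 (adjusted p = 0.222), with a median of -0.45 beside 0.01 for all genes tested. The smallest adjusted p was 0.0925, for unc-22 (-0.46 ± 0.13). Without tm2655 replicate 1 the values ran from -0.72 for dim-1 and ketn-1 to -0.44 for act-3 and ttn-1, with a median of -0.52, and 0 were called by edgeR (adjusted p 0.0608 to 0.223). For 7 of the genes every ok3407 library was below every tm2655 library, beside 12.3% of all genes (11.2% were separated the other way). The exceptions were unc-89, ttn-1 and ketn-1, for which tm2655 replicate 1 lay within the range of ok3407. This comparison shares its ok3407 libraries with the first and its tm2655 libraries with the second. For dim-1 the values in the 3 comparisons were -0.79 for ok3407 against wild type, -0.20 for tm2655 against wild type and -0.59 for ok3407 against tm2655, and without tm2655 replicate 1 they were -0.79, -0.07 and -0.72 in that order. For act-1 they were -0.44, -0.04 and -0.40 in the same order.

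All 10 genes stood below the wild type mean in every ok3407 library, but their paths within a group differed. As log2 differences from that mean, ketn-1 had -1.10, -0.75 and -0.51 in ok3407 replicates 1, 2 and 3. There act-4 had -0.50, -0.58 and -0.60, and act-3 had -0.48, -0.80 and -0.44. In wild type ttn-1 had 0.02, -0.01 and -0.00, while lev-11 had 0.12, -0.30 and 0.18. The median of the 10 differences was -0.56, -0.66 and -0.47 in the ok3407 libraries. It was -0.36, -0.07 and 0.05 in the tm2655 libraries and 0.03, -0.21 and 0.18 in the wild type libraries. tm2655 replicate 1 was the lowest library outside ok3407, and wild type replicate 2 was the next. All 10 genes were below the wild type mean in tm2655 replicate 1, with ketn-1 lowest at -0.58 and act-2 highest at -0.22. ok3407 replicate 1 held the lowest value of any library, -1.10 for ketn-1. In all, the 10 genes took 1.15%, 1.12% and 1.22% of gene reads in ok3407, 1.27%, 1.42% and 1.47% in tm2655 and 1.48%, 1.40% and 1.57% in wild type.

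**Figure D4:**
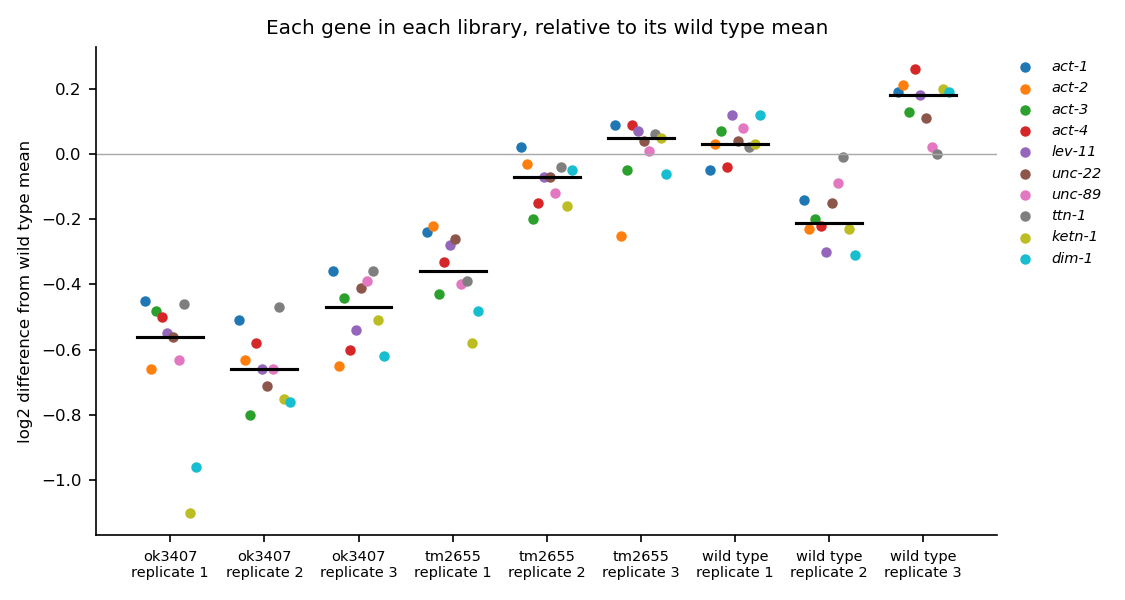
Log2 difference of each gene from its wild type mean in each of the 9 libraries, one colour per gene, with the median of the 10 as a black line. The ok3407 medians lie at -0.66 to -0.47, tm2655 replicate 1 at -0.36 and the remaining libraries at -0.21 to 0.18.

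The proportions between the giants were read as ratios, which were not tested. The RPKM ratio of unc-22 to ttn-1 was 7.73, 7.02 and 8.01 in ok3407, 9.01, 8.07 and 8.04 in tm2655 and 8.3, 7.5 and 8.83 in wild type. That of unc-89 to unc-22 was 0.733, 0.797 and 0.788 in ok3407, 0.713, 0.763 and 0.775 in tm2655 and 0.810, 0.809 and 0.740 in wild type. The unc-89 ratio overlapped between all groups. The unc-22 to ttn-1 ratio overlapped between each mutant and wild type, while the highest ok3407 value, 8.01, was just below the lowest tm2655 value, 8.04. ketn-1 relative to unc-22 ranged more widely, at 0.895, 1.26 and 1.22 in ok3407, 1.04, 1.22 and 1.32 in tm2655 and 1.29, 1.23 and 1.39 in wild type, with replicate 1 the lowest of each mutant group. Across the 9 libraries the closest pair in pattern was unc-22 and unc-89, with a root mean square difference of 0.066 between their centred log2 levels, and the farthest was ttn-1 and ketn-1, at 0.219. ketn-1 and dim-1, the genes with the most negative values in ok3407, differed by 0.094. These figures describe genes that share libraries and depth.

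For act-1, act-2, act-3, act-4, lev-11, unc-89, ttn-1 and dim-1 the lowest ok3407 intron share was above the highest wild type share. The gap was narrow for act-4 (4.60% against 4.56%) and dim-1 (5.48% against 5.43%). ketn-1 and unc-22 overlapped between these groups. The intron share was also higher in ok3407 over all genes. Over all genes introns took 9.90% to 11.41% of gene reads in ok3407, 8.78% to 9.31% in tm2655 and 8.83% to 9.34% in wild type. For lev-11 the intron share was 5.43% to 6.79% in ok3407, 3.66% to 4.40% in tm2655 and 3.39% to 4.40% in wild type. For unc-89 it was 7.07% to 7.61% in ok3407, 5.32% to 5.55% in tm2655 and 5.36% to 6.36% in wild type. For act-1 it was 12.7% to 14.7% in ok3407, 10.2% to 12.5% in tm2655 and 10.7% to 11.8% in wild type. In unc-22 introns held hardly any reads and the groups overlapped, at 0.379% to 0.711% in ok3407, 0.483% to 0.574% in tm2655 and 0.454% to 0.692% in wild type. With exon reads alone 4 of the 10 genes were called in ok3407 against wild type, with a median of -0.58. The part of the intron share in these results was not otherwise tested.

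Genes of the same sarcomere were read from 6 further lists of 60 genes, of which 59 were tested. In ok3407 against wild type 12 of the 59 fell and 0 rose, beside 2.91% of all genes called lower and 3.33% called higher. The median of the 59 was -0.40 beside 0.03 for all genes. The troponins, which with tropomyosin switch the thin filament on, had 5 of 10 that fell and a median of -0.69. Of these the troponin T genes tnt-3 and tnt-2 had the smallest p. tnt-3 fell to 146 ± 9.48 CPM in ok3407 against 246 ± 35.3 CPM in wild type (-0.75 ± 0.14, adjusted p = 0.0181). tnt-2 fell to 594 ± 22 CPM in ok3407 against 1103 ± 196 CPM in wild type (-0.89 ± 0.18, adjusted p = 0.0236).

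Of 13 genes of the thick filament and M-line 4 fell, with a median of -0.41. The main myosin heavy chain gene of body wall muscle, unc-54, stood at 4347 ± 275 CPM in ok3407 and 7274 ± 778 CPM in wild type (-0.74 ± 0.14, adjusted p = 0.0204). The myosin regulatory light chain gene mlc-1 stood at 443 ± 29.9 CPM in ok3407 and 793 ± 172 CPM in wild type (-0.84 ± 0.18, adjusted p = 0.0289). myo-3, which encodes the other body wall myosin heavy chain, did not pass, with 505 ± 129 CPM in ok3407 and 670 ± 67.1 CPM in wild type (-0.41 ± 0.20, adjusted p = 0.251). Twitchin transcript was also set against that of unc-54, with unc-22 at 2.58%, 2.45% and 2.65% of the unc-54 RPKM in ok3407, 2.44%, 2.42% and 2.44% in tm2655 and 2.20%, 2.32% and 2.26% in wild type. Every ratio of both mutants was above every wild type ratio, and these differences were not tested.

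Of 13 genes of dense bodies and muscle attachment 3 fell, with a median of -0.51. Every one of the 13 values was negative, as were 7568 of the 16055 over all genes tested. unc-95, which encodes a LIM domain protein of the attachments, stood at 28.4 ± 5.40 CPM in ok3407 and 61.6 ± 3.82 CPM in wild type (-1.12 ± 0.21, adjusted p = 0.0194). alp-1, a gene of the ALP/Enigma family at dense bodies, stood at 179 ± 27.6 CPM in ok3407 and 277 ± 18.6 CPM in wild type (-0.62 ± 0.14, adjusted p = 0.0355). In the authors' deposited table unc-95 has a signed fold change of -2.2 with a corrected p of 0.00223. Thin filament turnover genes, which cut, cap or bundle actin, had 0 of 14 called by edgeR (2 by DESeq2, 0 by limma) and a median of -0.05. At an unadjusted p under 0.05 stood 6 of these 14, and 23.6% of all genes. Calcium handling had 0 of 6 called (1 at an unadjusted p under 0.05, 1 by DESeq2, 0 by limma; median -0.07). Of the 4 muscle transcription factor genes 3 were tested and 0 were called (0 at an unadjusted p under 0.05, 0 by DESeq2 and by limma; median -0.11). That these lists differ from the structural ones was not tested.

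**Figure D5:**
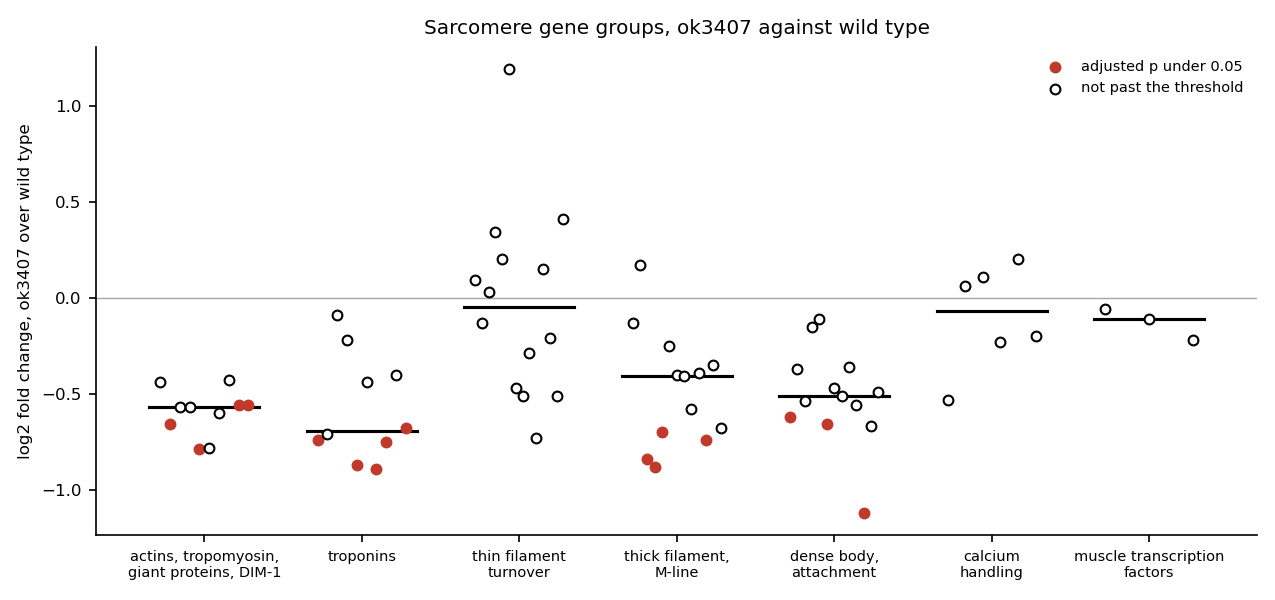
Log2 fold change in ok3407 against wild type for the 10 genes and the 6 further lists, in alphabetical order within a list. Filled points passed at an adjusted p under 0.05, and black lines are medians. Filled points occur among the 10 genes, the troponins, the thick filament and the dense body genes.

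All 6 named partner calls were lost without ok3407 replicate 2 (adjusted p 0.0673 to 0.0975) or wild type replicate 3 (0.0803 to 0.122). All but tnt-3 were lost when ok3407 replicate 1 (0.0545 to 0.065) or wild type replicate 1 (0.0594 to 0.0884) was left out. mlc-1 was lost without ok3407 replicate 3 (0.0698), and alp-1 without tm2655 replicate 3 (0.0562) or wild type replicate 2 (0.0708). The 12 partner calls numbered 2 without ok3407 replicate 1, 0 without ok3407 replicate 2, 7 without tm2655 replicate 2, 7 without tm2655 replicate 3, 1 without wild type replicate 1 and 0 without wild type replicate 3. In tm2655 against wild type 0 of the 59 genes were called (0 at an unadjusted p under 0.05, 0 by DESeq2 and by limma; median -0.11). That median was -0.02 without tm2655 replicate 1, -0.20 without tm2655 replicate 3, -0.17 without wild type replicate 2 and -0.06 without wild type replicate 3. Between ok3407 and tm2655 only tnt-3 was called by edgeR, lower in ok3407, at 146 ± 9.48 CPM against 258 ± 32.4 CPM in tm2655 (-0.82 ± 0.14, adjusted p = 0.0134). That call was lost without ok3407 replicate 2 (-0.79, adjusted p = 0.053) or tm2655 replicate 3 (-0.71, adjusted p = 0.0589). The edgeR count there was 2 without ok3407 replicate 3, 5 without tm2655 replicate 1 and 3 without wild type replicate 2. DESeq2 called 11 of the partners there, beside 1441 over all genes.

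Summed markers of muscle and of other tissues were read beside these results. The 6 body wall muscle markers, unc-54, myo-3, pat-10, unc-27, hlh-1 and unc-120, are all in the partner lists above, so their sum is no separate readout. They summed to 6307 to 7139 CPM in ok3407, 8528 to 10891 CPM in tm2655 and 9358 to 11823 CPM in wild type. unc-54 alone averaged 4347 CPM in ok3407 and 7274 CPM in wild type. In ok3407 against wild type 2 of the 6 fell, unc-54 and unc-27, both already counted among the 12 partner calls. The share over all genes, for this and the marker lists below, was 2.91% called lower and 3.33% called higher. The 6 pharyngeal muscle markers are all in the partner lists as well. They summed to 676 to 1095 CPM in ok3407, 949 to 1327 CPM in tm2655 and 947 to 1247 CPM in wild type. Of these 0 were called (1 at an unadjusted p under 0.05, 0 by DESeq2 and by limma). The 8 intestine markers, which include act-5, summed to 3533 to 4075 CPM in ok3407, 5902 to 8445 CPM in tm2655 and 5573 to 8564 CPM in wild type, with 1 of 8 called, act-5. asp-1 averaged 2009 CPM in ok3407 and 3402 CPM in wild type, and act-5 525 and 1668 CPM. In 3 of the 8 every ok3407 library was below every wild type library, and in 1, elt-7, every one was above (0.81 ± 0.24, adjusted p = 0.0766). Over all genes 14.5% were separated downward and 14.4% upward. elt-2, ifb-2, vha-6 and pept-1 overlapped between these groups. Sums overlapped between ok3407 and wild type for epidermis (142 to 204 CPM in ok3407 and 148 to 188 in wild type) and neurons (358 to 419 CPM in ok3407 and 379 to 414 in wild type). Of the 8 epidermis markers 1 was called, the transcription factor gene elt-3, named after its value was seen. It stood at 14.6 ± 3.05 CPM in ok3407 and 27.7 ± 3.95 CPM in wild type (-0.92 ± 0.22, adjusted p = 0.0391). DESeq2 called 2 of the 8. Most epidermis markers went the other way, with 6 of the 8 values above 0, 2 below and a median of 0.11. Among those above 0 was che-14 (1.93 ± 0.66, adjusted p = 0.118). The elt-3 call was lost without ok3407 replicate 1 or 2, tm2655 replicate 2, or any one wild type library (adjusted p 0.0536 to 0.159). Of the 9 neuron markers 0 were called by edgeR (1 at an unadjusted p under 0.05, 0 by DESeq2 and by limma). The 8 germ line markers also had 0 called by edgeR (1 at an unadjusted p under 0.05, 0 by DESeq2 and by limma). For the germ line the sums were 1825 to 2062 CPM in ok3407 and 2064 to 2368 CPM in wild type. No marker was at 0 in any library. The part of tissue makeup in the lower levels of the 10 genes was not tested.

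The genes outside the set with the most similar pattern over the 9 libraries were vha-8, unc-15, F40A3.3, deb-1 and vha-2. Their centred log2 levels differed from the mean profile of the 10 genes by a root mean square of 0.046, 0.047, 0.062, 0.065 and 0.066 in that order, beside a median of 0.348 over the 8916 genes with a mean of at least 10 CPM. unc-15 encodes paramyosin, the core protein of the thick filament, and deb-1 encodes vinculin of the dense bodies. vha-8 and vha-2 encode subunits of the vacuolar proton pump. The 10 genes themselves differed from their mean profile by 0.051 for unc-22 to 0.152 for ketn-1.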

How the data were processed

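RNA of 9 samples, hand-picked L4 larvae in lethargus, was made into stranded mRNA libraries and read in 75 paired-end cycles, per the labels' protocols. The authors deposited raw counts per gene (total, unique, exon and intron gene reads), RPKM values (exon reads scaled to exon length and library size, per the file headers) and exon lengths in bases. Of 20306 genes with annotated transcripts, 95.5% have an exon length that is a multiple of 3, so these are coding lengths. The deposited comparison tables give a p-value, a corrected p-value and a score, which is the fold change of that EDGE test with a minus sign for genes lower in the mutant, per the file headers. None of aligner, counter, strand setting or genome build is given in the sources used here. Gene names are those of the tables. In WBcel235 gene models, which include untranslated ends, all 10 genes lie at the same places.

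Total gene reads were fitted with edgeR (quasi-likelihood, robust, TMM factors, filterByExpr, 1 term per group) over all 9 libraries, with Benjamini-Hochberg adjustment over 16055 genes. Standard errors are approximate, the absolute log2 change divided by the square root of F. Alternatives were RLE factors, total library size, no filter, a block for the replicate number, at least 5 CPM in 3 libraries, DESeq2, limma-trend on log2(RPKM + 1), the 6 libraries of a comparison, exon reads, unique reads, unique exon reads (added after the data were seen) and leaving out each library. Leaving out a library leaves its group with 2, and the spread is shared by all groups. Replicates differed by more than sampling noise. Reads carry no molecular identifiers.

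The 10 genes and the other lists were chosen with earlier results of these data known. The rule for named genes took all 10 genes in every comparison, act-5, in each partner list the 2 called genes with the smallest p in ok3407 against wild type with unc-54 and myo-3, and the 5 genes most alike in pattern, by the root mean square difference of centred log2(CPM + 0.5). No list was tested as a set. Scripts were tested on simulated data. Tables were read in Python 3.11.15 with numpy 2.4.6 and pandas 2.3.3, figures drawn with matplotlib 3.10.9, and models fitted in R 4.3.3 with DESeq2 1.42.0, limma 3.58.1 and edgeR 4.0.16.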

Additional observations from a re-analysis of the deposited data

How the results depend on the processing

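The number of the 10 genes called in ok3407 against wild type was 4. It was 2 with total library size, 10 with DESeq2, 1 with limma on log2(RPKM + 1), 1 in the fit of 6 libraries, and 0 to 6 without each library in turn. Partner genes called there were 12, and 6, 22, 6 and 7 under the same 4 settings, and 0 to 17 without each library. All genes called were 1001, and 924, 1972, 946 and 808 under the same 4 settings. Without each library they ran from 123 to 1163. Of the 1001 calls 534 were higher and 467 lower in ok3407, and with total library size 757 were higher and 167 lower. The summed actins passed with DESeq2 (-0.57) and limma (-0.37), and ran from -0.65 to -0.45 without each library.

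In tm2655 against wild type 1 gene of all was called, 0 with the 5 CPM filter, exon reads or unique exon reads, 4 with DESeq2, and 0 to 1 without each library. act-1 turned to 0 with total library size, 0.01 with limma, 0 with unique reads, 0.07 with unique exon reads, 0.05 without tm2655 replicate 1 and 0.06 without wild type replicate 3, act-3 to 0.01 with unique exon reads, ttn-1 to 0.01 without tm2655 replicate 1, and act-4 to 0.01 without wild type replicate 3. Without each library in turn act-1 ran from -0.12 to 0.06, ttn-1 from -0.21 to 0.01 and act-4 from -0.25 to 0.01.

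Between ok3407 and tm2655, 0 of the 10 genes were called, 3 with DESeq2. Partner genes called were 1, 3 without a filter, 11 with DESeq2 and 0 to 5 without each library. All genes called were 645, 1441 with DESeq2, 390 in the fit of 6 libraries and 222 to 623 without each library.

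With the replicate block the genes of the set called in ok3407 against wild type stayed at 4 in number, with ketn-1 called (-0.80, adjusted p = 0.0305) and unc-89 not (-0.57, adjusted p = 0.0557). Partner genes were 10 there and 2 in ok3407 against tm2655, and all genes called in tm2655 against wild type were 0. The labels do not say that the numbers pair the libraries. Correlations of same-numbered libraries ran from -0.24 to 0.38, and those of differently numbered libraries from -0.39 to 0.32. These ranges overlap and cannot tell whether same-numbered libraries shared a batch.

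Each group has 3 libraries, and the reads of act-1 and act-3 cannot be told apart in exons. The causes of these differences were not tested.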
